A study of Anas platyrhynchos with 6 samples.

Results

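Phosphatase genes gave 376 of the 16631 circular RNAs listed in embryonic breast muscle of the duck. They were taken as the circular RNAs with a host gene whose description holds the word phosphatase, with the calcineurin catalytic genes PPP3CA, PPP3CB and PPP3CC left out. Many circles are listed under a pair of names that differ by 1 base at the start. With such pairs joined, the set holds 321 of 14917 back-splice junctions, in 77 of 4129 genes. A gene here is one description in the table. The word also catches pyrophosphatases, such as ENPP2, and partners of phosphatases that cleave no phosphate themselves, such as the regulatory subunits of protein phosphatase 2A.

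The libraries were made from breast muscle of female Shan Ma duck (Anas platyrhynchos, written Shanma in the labels) embryos on embryonic day 19 (E19) and day 13 (E13), with 3 libraries at each stage. The embryos were untreated and of one genetic background. At E19 most myoblasts have differentiated and fused, and the E13 muscle is labelled as not yet differentiated. Each library is whole tissue, so fewer cells of a type and less RNA per cell cannot be told apart. The labels name separate samples but not which embryo gave each one, so the p-values measure the spread between these samples.

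Phosphatases remove phosphate from proteins, lipids and small molecules, and so reverse the work of kinases. Tyrosine phosphatases and serine/threonine phosphatases act on proteins. Many of the serine/threonine enzymes are catalytic subunits held by regulatory subunits that choose the target. Phosphoinositide phosphatases act on membrane lipids and on soluble inositol phosphates, and thereby limit signals that run from growth factor receptors through PI 3-kinase to AKT, a route used by growing muscle. EYA proteins are tyrosine phosphatases that also serve as transcription partners in the making of muscle. A circular RNA forms when the end of an exon is spliced back to the start of the same or an earlier exon, so its abundance is that of the circle and not of the messenger RNA.

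Values are back-splice reads, the reads that cross such a junction, or SRPBM, which are these reads per 1000000000 mapped bases of the library. With each junction taken once, those outside genes included, the libraries held 49587 to 69736 back-splice reads at E19 and 36506 to 58647 at E13. Of these, phosphatase genes gave 1264, 1775 and 1318 reads at E19, against 1744, 1083 and 1370 reads at E13. Counts of this size leave most single circles with few reads: 196 of the 321 junctions (61.1%) were seen in 1 library only, 63 had a single read, and 30 (9.35%) were seen in all 6 libraries. Among the markers of muscle chosen for this tissue, 8 of 24 had circular reads and 2 of the 5 tested rose at E19 (dystrophin DMD, edgeR adjusted p = 0.017, and the calcium channel RYR3, adjusted p = 0.027), with summed levels of 40.3 to 83.8 SRPBM at E19 and 24.1 to 31.2 SRPBM at E13. TTN, NEB, MYOD1, MYOG and the MYH genes of that list had no circular read, so circles check the tissue only in part. Of 12 nerve and Schwann cell markers 4 had reads, with SOX10 at 0. Connective tissue (3 of 12 markers with reads), blood and immune (3 of 10), endothelium (4 of 8) and fat (0 of 5) had no marker that passed. The part of these markers in the phosphatase values was not tested.

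Circles of phosphatase genes, INPP4B included, made up a smaller share of all circular reads in each E19 library than in any E13 library. Their summed level overlapped between the stages. The share was 2.17% (95% Wilson interval 2.05 to 2.29%), 2.55% (2.43 to 2.66%) and 2.66% (2.52 to 2.80%) in the E19 libraries, against 2.97% (2.84 to 3.11%), 2.97% (2.80 to 3.15%) and 2.90% (2.76 to 3.06%) in the E13 libraries. These intervals cover counting error only. The means were 2.46 ± 0.26% at E19 and 2.95 ± 0.04% at E13 (SD, n = 3 each, two-sided exact permutation p = 0.1, the smallest that 3 against 3 libraries can give). Summed SRPBM of the same circles was 352 ± 75 at E19 and 343 ± 59 at E13 (exact permutation p = 0.8), with overlapping stages. All back-splice reads together came to 14365 ± 2780 SRPBM at E19 and 11635 ± 1970 SRPBM at E13 (p = 0.2, exact permutation). The most abundant circle of the whole table, of the gene ENSAPLG00000008538, held 9.07%, 13.0% and 7.60% of the reads at E19, against 4.91%, 4.73% and 5.48% at E13. Without it the phosphatase share was 2.73 ± 0.30% at E19 and 3.10 ± 0.03% at E13 (exact permutation p = 0.1, chosen after seeing the data). Both shares include the gene INPP4B, which had 146, 236 and 222 reads at E19, against 410, 288 and 408 reads at E13. Without INPP4B the shares of the stages overlapped, with or without the most abundant circle, so the other phosphatase genes together showed no separate lower share. No p-value was computed for a share without INPP4B. The number of phosphatase junctions seen was 110, 130 and 106 at E19, against 109, 99 and 104 at E13 (exact permutation p = 0.2). As a share of all junctions seen in a library they were 2.22 ± 0.07% at E19 and 2.26 ± 0.07% at E13 (exact permutation p = 0.5).

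**Figure D1:**
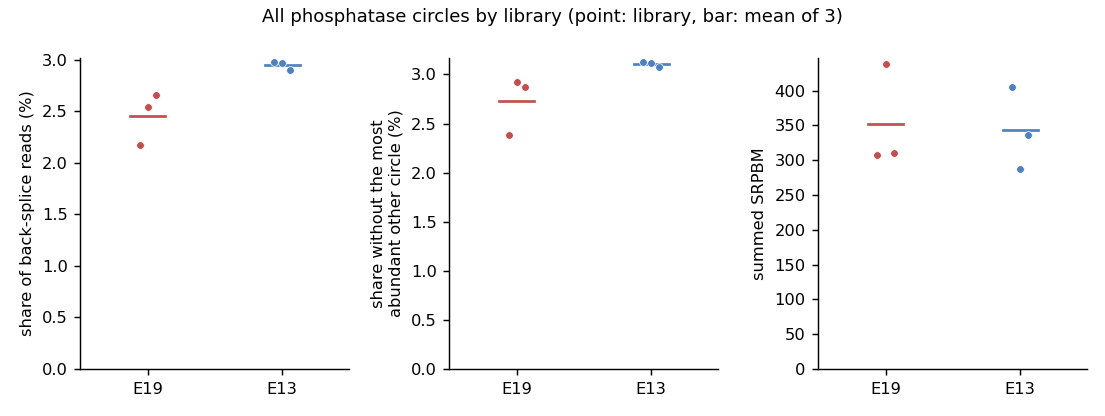
Phosphatase circles in each library: share of all back-splice reads in percent (left), the same share without the most abundant circle of the table (middle), and summed SRPBM (right). Points are libraries, bars the mean of 3, and all axes start at 0. The E19 shares of 2.17 to 2.66% lie below the E13 shares of 2.90 to 2.97%, while the summed SRPBM of the stages overlaps. The shares shown include INPP4B, without which the shares of the stages overlap.

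A few genes carried most of this RNA. INPP5A held 25.3% of the phosphatase reads, INPP4B 19.99%, EYA2 13.0% and CTDP1 7.22%, and with PHLPP1 and PTPN14 these genes reached 72.9%. By role, the 9 phosphoinositide and inositol phosphatases held 46.0% of the reads, the 8 genes of the EYA and dual-specificity class 19.3%, the 15 serine/threonine catalytic genes 13.9%, the 18 regulatory subunits and partners 8.14%, the 8 non-receptor tyrosine phosphatases 5.35%, the 8 receptor-type ones 5.02%, and the other 11 genes 2.24%. At the other end, 8 genes had a single read over the 6 libraries.

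**Figure D2:**
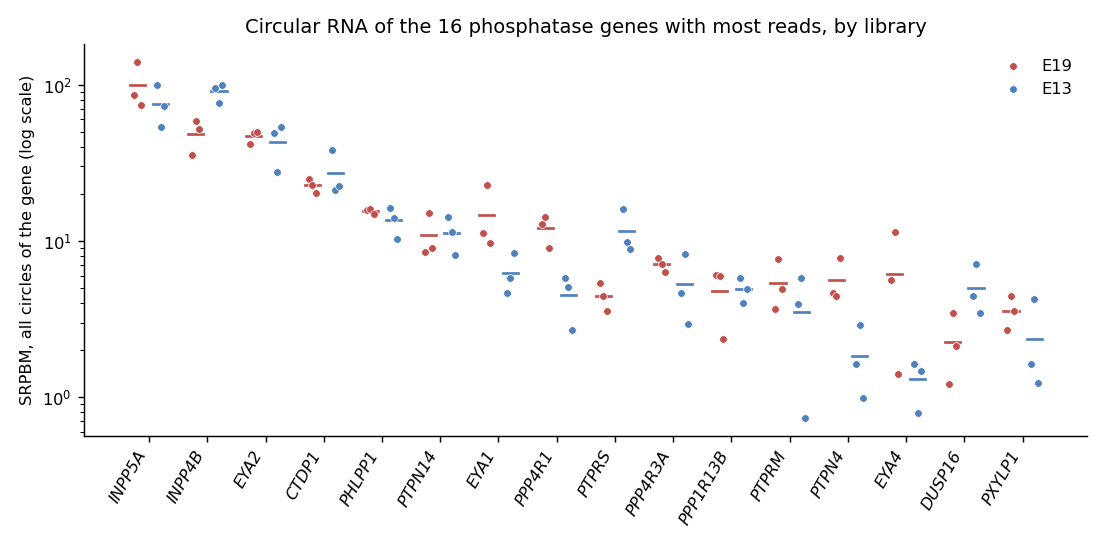
SRPBM summed over all circles of a gene, on a log axis, for the 16 phosphatase genes with most reads. Points are libraries (E19 left, E13 right of each gene) and bars the mean of 3. INPP4B and PTPRS lie lower in every E19 library, EYA1, PPP4R1 and PTPN4 higher in every E19 library, and the stages of the other 11 genes overlap.

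In most phosphatase genes with 50 or more reads, 1 circle held most of the reads, and its splice sites therefore did too. In 16 of the 19 phosphatase genes with 50 or more reads a single junction gave at least 50% of the reads (median 79.7%, from 24.8% in PTPRM to 100% in PPM1D, which had only that circle). In 12 of these genes some splice site was used by 3 or more circles, and in 10 of the 12 one such site took part in at least 75% of the gene's reads. The share of a site includes the main circle where that circle uses it, so it cannot fall below the share of that circle. These counts were not made for other genes. The direction varied from gene to gene. In INPP5A, EYA1 and EYA2 the shared site was the end of the last exon of the circles, and it took part in 95.5%, 89.5% and 84.8% of the gene's reads. In CTDP1 (99.5%), PTPN14 (95.9%), INPP4B (86.8%), PTPRS (80.7%) and PTPN4 (77.2%) it was the start of the first exon. PPP1CB had its 62 reads in 3 circles with the same first exon. PPP6R3, which is below that read limit with 44 reads, had 9 circles from one first exon, holding 88.6% of its reads.

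**Figure D3:**
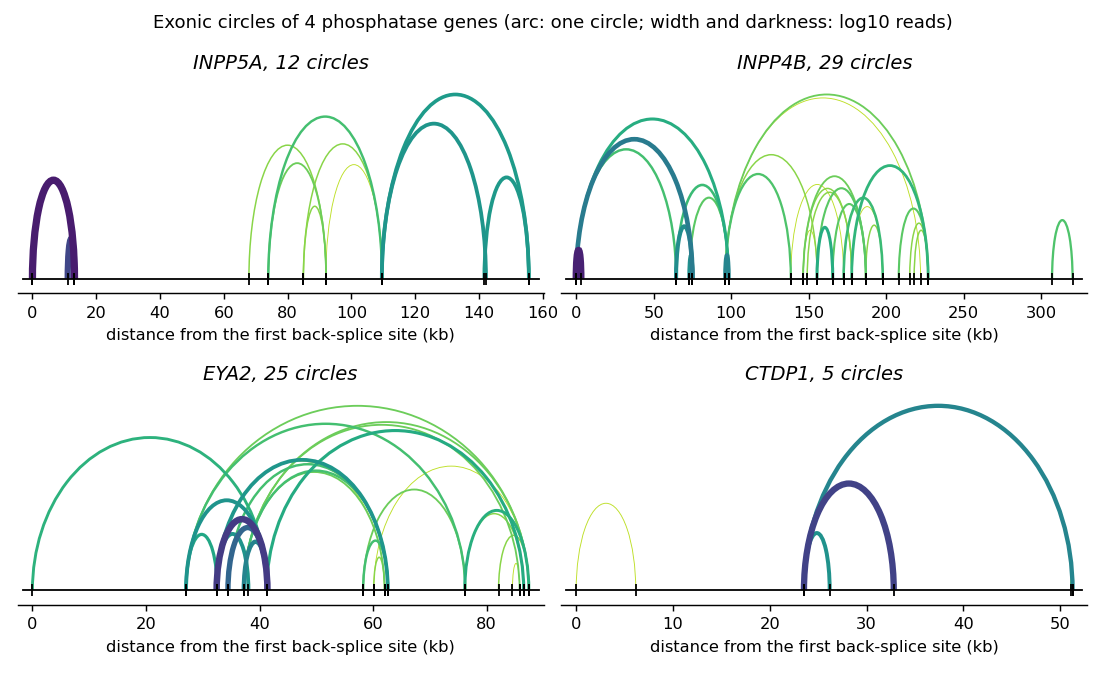
Exonic circles of INPP5A (12), INPP4B (29), EYA2 (25) and CTDP1 (5). The horizontal axis is the distance in kb from the first back-splice site in the direction of transcription, each arc joins the ends of 1 circle, and arcs are wider and darker with log10 reads. Most reads of each gene lie in 1 short circle, and some of the other circles share one of its ends.

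Exonic circles of phosphatase genes spanned a median of 4 exons, against 3 in other genes, and 47 of the 293 exonic junctions (16.04%) held 8 or more exons, against 9.33%. Single-exon circles were 3.41% of phosphatase circles and 5.98% of other circles. The median length was 473 bases, against 452 bases in other genes. A splice site shared with another circle was found for 68.3% of them, against 60.4%. Circles labelled as intronic (ciRNA in the files) were 28 of the 321 junctions (8.72%), against 12.3% in other genes. These are descriptions of the list and were given no test, since circles of a gene share splice sites.

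In the comparison of the stages, no phosphatase circle or gene passed the adjusted threshold. With edgeR quasi-likelihood tests on the 3608 junctions with at least 10 reads, 1.3% of all junctions passed an adjusted p of 0.05 and 0 of the 71 phosphatase junctions did. At an unadjusted p under 0.05 there were 6 of the 71, and the background was 9.28%. On reads summed by gene, 2.72% of 1836 genes passed and 0 of the 46 tested phosphatase genes did, with 8 of the 46 at an unadjusted p under 0.05 and a background of 12.5%. The other 31 genes had fewer than 10 reads. At the thresholds used in the study (a log2 change of 1 or more in either direction with an unadjusted p no higher than 0.05) 4 phosphatase junctions lay higher at E19 (circRNA1837 of EYA4, circRNA2333 of PPP4R1, circRNA5005 of EYA1 and circRNA10966 of PPP2R3A, background 6.13%) and 1 lower (circRNA817 of PTPRS, background 2.97%). At the same thresholds 6 genes lay higher (EYA4, PPP4R1, EYA1, PTPN4, PPP2CA and INPP5D, background 7.46%) and 1 lower (PTPRS, background 4.03%). Of those counted as higher, circRNA10966, PPP2CA and INPP5D had no read at E13. They reached the 10 reads needed for a test through E19 alone, which fixed their direction beforehand. The stages did not overlap for 8 of the 71 junctions, against 14.5% of all, with 3 higher at E19 (circRNA903 of PTPN4, circRNA3038 of PPP2R3A and circRNA763 of EYA2, background 9.62%) and 5 lower (among them circRNA1554 and circRNA1550 of INPP4B, circRNA817 of PTPRS and circRNA2622 of DUSP16, background 4.85%). The stages did not overlap for 10 of the 46 genes, against 15.7%. Of these 10 genes 7 were higher at E19 (background 10.4%) and 3 lower (INPP4B and PTPRS among them, background 5.28%). INPP5D is 1 of the 7, and its direction was fixed beforehand here too. The median log2 change was 0.35 over the 46 genes and 0.24 over all genes tested, and 0.23 over the 71 junctions and 0.26 over all.

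With other tools or scalings 1 or 2 phosphatase genes did pass, INPP4B in each of 4 such settings and PTPRS in 2 of them, always lower at E19, and EYA4 passed in 1 fit with a library left out. DESeq2 called INPP4B, against 1.8% of all genes tested, and so did limma voom, also against 1.8%. edgeR scaled by total back-splice reads called INPP4B and PTPRS, against 2.45% of all genes, and scaled by TMM factors it called the same pair, against 2.72%. The fit that called EYA4 left out E19 replicate 3 and called 2.59% of all genes. Scaling by total back-splice reads moves the median change of all genes by -0.28 on the log2 scale, TMM factors by -0.16 and DESeq2 size factors by -0.21. At the thresholds of the study the split of phosphatase genes was then 2 higher and 3 lower at E19 on the scale of total back-splice reads (3.76% and 6.05% of all genes), 3 and 3 with TMM factors (5.12% and 4.96%), and 2 and 2 with DESeq2 (3.43% and 4.08%), in place of 6 and 1 (7.46% and 4.03%).

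INPP5A, a 5-phosphatase that takes a phosphate off inositol trisphosphate and so ends its calcium signal, had the most circular reads. Its circles gave 352, 568 and 317 reads at E19, against 427, 202 and 296 reads at E13. The stages overlapped, with the highest value at E19 and the lowest at E13 (log2 change 0.41, SE 0.34, edgeR adjusted p = 0.81). The circle of exons 2 to 4 (circRNA4437, listed also as circRNA1130, chr6:36566421-36579605, plus strand, 231 bases) held 73.1% of these reads, with 260, 419 and 244 at E19 and 315, 162 and 180 at E13. The circle of exons 3 and 4 alone (circRNA4438) ends at the same site and had 71, 138 and 51 reads at E19, against 88, 37 and 95 at E13. A circle with a first exon start 4 bases away had 4 reads in all. Further along the gene, from exon 9 to exon 12, 3 circles had 24 to 29 reads each. Positions are those of the deposited table, counted from 1, on an Ensembl duck genome whose build the sources do not name.

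INPP4B removes the 4-phosphate of the lipid phosphatidylinositol 3,4-bisphosphate and so limits AKT signalling. It had 31 circles, the most of any phosphatase gene. They gave 146, 236 and 222 reads at E19, against 410, 288 and 408 reads at E13. Every E19 library lay below every E13 library, at 48.7 ± 11.8 SRPBM at E19 and 90.6 ± 12.6 SRPBM at E13 (SD, n = 3 each). The edgeR log2 change was -0.90 (SE 0.35, unadjusted p = 0.0097) and missed the threshold (adjusted p = 0.20). It was -1.18 (adjusted p = 0.0031) when scaled by total back-splice reads, -1.06 (0.010) with TMM factors, -1.10 (0.0013) in DESeq2 and -0.92 (0.024) in limma voom, and the adjusted p ran up to 0.61 over all 18 alternatives.

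The circle of exons 2 and 3 (circRNA1554, chr4:57583657-57586729, minus strand, 279 bases) held 81.2% of the INPP4B reads. It had 111, 197 and 184 reads at E19, against 311, 238 and 348 at E13 (log2 change -0.89, SE 0.35, edgeR adjusted p = 0.36). It was called lower at E19 in DESeq2 (adjusted p = 0.0026), limma voom (adjusted p = 0.018) and edgeR with total back-splice reads (adjusted p = 0.033), which called 1.69%, 1.27% and 0.887% of all junctions. The other circles of the gene together also lay lower in every E19 library, with 35, 39 and 38 reads at E19 and 99, 50 and 60 reads at E13. The circle made up 81.5% of the gene's reads at E19 and 81.1% at E13. All 7 tested INPP4B circles, some of which share splice sites, had a log2 change below 0, from -2.20 to -0.42, and none passed. Among them the circle of exons 4 and 5 of another isoform (circRNA1550) had 1, 9 and 2 reads at E19, against 17, 9 and 15 at E13. Its SRPBM did not overlap between the stages, although the read count 9 occurs at both. The INPP4B circles with too few reads for a test went both ways. For example, circRNA5885 had 8 reads at E19 and 1 at E13, and ciRNA214 had 0 at E19 and 8 at E13.

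The other lipid phosphatases had few reads. INPP5D (SHIP1, known from blood cells) had 3, 4 and 4 reads in the E19 libraries and none at E13. With E13 set to a floor of 3 reads over the stage, the observed E19 reads are 3.59-fold higher (edgeR adjusted p = 0.40). This fold leaves out the counting error of the E19 reads, so it is no lower limit. The blood marker PTPRC, which is a phosphatase gene itself, had no circular read, while 3 of the 10 blood and immune markers had some. The part of blood cells was not tested. FIG4, a phosphatase of phosphatidylinositol 3,5-bisphosphate, had 3, 5 and 1 reads at E19 and 9, 4 and 0 at E13, with overlapping stages. Of 44 kinases and partners on the PI 3-kinase side 18 had circular reads, 14 were tested and 0 passed, with a median log2 change of 0.04. Their summed level was 24.8 to 35.1 SRPBM at E19 and 22.1 to 38.1 SRPBM at E13.

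Among the EYA genes, the estimated log2 changes of EYA1 and EYA4 lay further above 0 than that of EYA2, and none of the 3 passed the adjusted threshold with all libraries. EYA2 gave 172, 198 and 213 reads at E19, against 210, 104 and 217 at E13 (log2 change 0.12, SE 0.35, edgeR adjusted p = 0.97), and the sign of this small change turned with total back-splice reads, TMM factors and DESeq2. Its 29 circles included exons 2 to 6 (circRNA3501, chr21:1504406-1513348, minus strand, 428 bases), with 96, 114 and 135 reads at E19 and 149, 56 and 121 at E13, and exons 3 to 6 (circRNA760), with 29, 29 and 35 reads at E19 and 28, 17 and 40 at E13. Both end at the same site. A rarer circle that starts further upstream and ends there too (circRNA3503) was seen in E13 libraries only, with 7, 0 and 3 reads.

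EYA1 gave 46, 93 and 41 reads at E19, against 20, 22 and 34 at E13. The stages did not overlap, and the second E19 library lay well above the others (log2 change 1.21, SE 0.45, unadjusted p = 0.0064, edgeR adjusted p = 0.15). Without that library the change was 0.73 (adjusted p = 0.78). Its main circle of exons 10 to 12 (circRNA5005, listed also as circRNA2370, chr2:123628817-123636410, minus strand, 317 bases) had 29, 84 and 29 reads at E19 and 11, 18 and 32 at E13, and here the stages overlapped (log2 change 1.19, SE 0.52, adjusted p = 0.43).

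EYA4 gave 23, 46 and 6 reads at E19, against 7, 3 and 6 at E13. The first and second E19 libraries were above all E13 libraries and the last was among them. The log2 change was 2.20 (SE 0.74, unadjusted p = 0.0029, edgeR adjusted p = 0.089), the smallest p of any phosphatase gene. It was 2.67 and passed (adjusted p = 0.020) without E19 replicate 3, and 1.40 (adjusted p = 0.81) without E19 replicate 2. A single circle of exons 12 to 15 (circRNA1837, chr3:58618430-58639051, minus strand, 404 bases) held 92.3% of the reads, with 22, 43 and 6 at E19 and 5, 2 and 6 at E13 (log2 change 2.41, SE 0.79, adjusted p = 0.13).

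**Figure D4:**
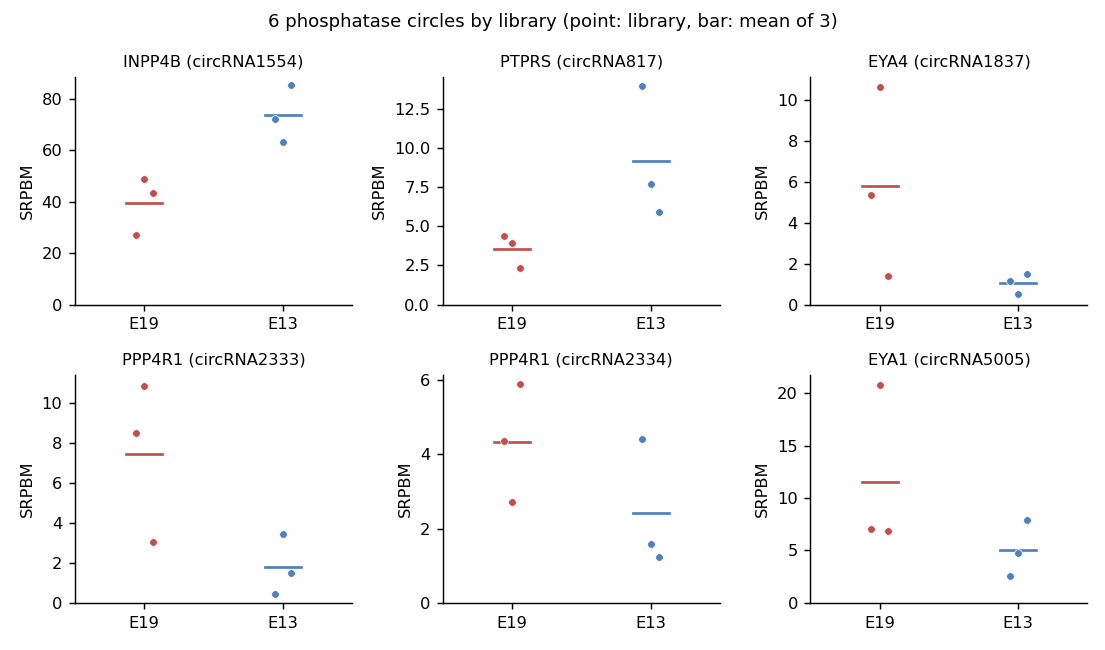
SRPBM of 6 phosphatase circles in each library (points) with the mean of 3 (bars), E19 left and E13 right, each axis from 0. INPP4B circRNA1554 and PTPRS circRNA817 lie lower in every E19 library, and the E19 and E13 points of EYA4 circRNA1837, both PPP4R1 circles and EYA1 circRNA5005 overlap in range.

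The dual-specificity phosphatases act on MAP kinases. DUSP16, which acts on JNK, had 5, 14 and 9 reads at E19, against 19, 27 and 14 at E13, and the stages met at 14 reads (log2 change -1.13, SE 0.71, edgeR adjusted p = 0.61). Its main circle of exons 3 and 4 (circRNA2623) had 2, 3 and 7 reads at E19 and 14, 7 and 0 at E13. Of 40 genes of the MAP kinase cascade 17 had circular reads, 13 were tested and 0 passed (median log2 change 0.14). Their summed level was 97.1 to 121 SRPBM at E19 and 80.4 to 105 SRPBM at E13.

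Circles of the catalytic serine/threonine phosphatases stood at 47.4 ± 5.2 SRPBM at E19 and 49.1 ± 15.4 SRPBM at E13. CTDP1, which dephosphorylates the tail of RNA polymerase II, had 103, 93 and 86 reads at E19, against 165, 80 and 91 at E13. The first E13 library was the highest, and the log2 change of -0.26 (SE 0.37, edgeR adjusted p = 0.94) was 0.06 without it. The circle of exons 9 to 11 (circRNA2171, chr2:47042373-47051650, minus strand, 539 bases) held 85.4% of these reads. A longer circle with the same first exon, ending with exon 12 (circRNA3397), had 12, 0 and 4 reads at E19 and 19, 3 and 15 at E13. PHLPP1, which takes phosphate off AKT, had 65, 65 and 63 reads at E19 and 70, 53 and 42 at E13 (log2 change 0.20, SE 0.40). PPP1CB, a catalytic subunit of protein phosphatase 1 found in myosin phosphatase, had 2, 11 and 13 reads at E19 and 22, 4 and 10 at E13. PPP2CA, a catalytic subunit of protein phosphatase 2A, had 3, 9 and 0 reads at E19 and none at E13, so 1 E19 library was at 0 as well. The observed E19 reads are 3.92-fold a floor of 3 reads over the E13 stage (edgeR adjusted p = 0.40). This fold too leaves out the counting error of the E19 reads.

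Regulatory subunits and partners together stood at 42.3, 37.3 and 24.5 SRPBM at E19, against 24.4, 22.8 and 18.7 SRPBM at E13. The E19 libraries lay above the E13 libraries, the lowest E19 value by little (exact permutation p = 0.1, the smallest possible, and 0.47 adjusted over the 7 classes). Without PPP4R1 the summed SRPBM of this class overlapped between the stages. PPP4R1, a regulatory subunit of protein phosphatase 4, gave the largest part. It had 53, 58 and 38 reads at E19, against 25, 19 and 11 at E13, with every E19 library higher (log2 change 1.41, SE 0.48, unadjusted p = 0.0037, edgeR adjusted p = 0.10). Of the 18 alternatives none brought it past the threshold.

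PPP4R1 had a pair of circles that share the end of the last exon and differ by 51 bases at the start of the first, which the annotation gives as exons 3 and 4 of different isoforms. The shorter (circRNA2333, chr2:107700593-107708138, minus strand) had 35, 44 and 13 reads at E19, against 2, 13 and 6 at E13 (log2 change 2.06, SE 0.68, edgeR adjusted p = 0.13). The longer (circRNA2334, chr2:107700593-107708189, 243 bases) had 18, 11 and 25 reads at E19, against 19, 6 and 5 at E13 (log2 change 0.83, SE 0.74, adjusted p = 0.85). The shorter one made up 66.04%, 80.0% and 34.2% of the pair at E19, against 9.52%, 68.4% and 54.5% at E13, so the choice of the start varied within each stage and the stages overlapped (exact permutation p = 0.6). In the first E13 library its 95% Wilson interval was 2.65 to 28.9% and in the second 46.0 to 84.6%.

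Other regulatory subunits had wider errors. PPP4R3A, also of protein phosphatase 4, had 32, 29 and 27 reads at E19 and 20, 31 and 12 at E13, and the p53 partner PPP1R13B had 25, 24 and 10 at E19 and 25, 15 and 20 at E13. PPP2R3A, a regulatory subunit of protein phosphatase 2A, had 15, 9 and 12 reads at E19, against 4, 1 and 3 at E13, with no overlap (log2 change 2.11, SE 1.19, edgeR adjusted p = 0.49). Its circle circRNA10966 had 8, 0 and 8 reads at E19 and none at E13. PPP2R5C, of the B56 subunits, had 0, 3 and 0 reads at E19, against 8, 2 and 3 at E13, with overlapping stages.

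Receptor-type tyrosine phosphatases stood at 14.2 ± 5.1 SRPBM at E19 and 20.8 ± 5.3 SRPBM at E13, and PTPRS was the one with the smallest p. PTPRS, a receptor of the LAR family that binds proteoglycans on nerve cells, had 22, 18 and 15 reads at E19, against 69, 37 and 36 at E13. Every E19 library lay lower, at 4.44 ± 0.91 SRPBM at E19 and 11.6 ± 3.9 SRPBM at E13 (log2 change -1.38, SE 0.49, unadjusted p = 0.0050, edgeR adjusted p = 0.13). It passed with total back-splice reads (log2 change -1.65, adjusted p = 0.021) and with TMM factors (-1.53, 0.034), and over the 18 alternatives the adjusted p ran up to 0.47. The circle of exons 10 to 13 (circRNA817, chr29:2679535-2688004, minus strand, 1209 bases) held 79.7% of the reads, with 18, 16 and 10 at E19 and 60, 29 and 24 at E13 (log2 change -1.36, SE 0.56, adjusted p = 0.40). The rest of the gene's circles also lay lower, with 4, 2 and 5 reads at E19 and 9, 8 and 12 reads at E13.

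The stages of the other named receptors overlapped. PTPRM, an adhesion receptor, had 15, 31 and 21 reads at E19 and 17, 22 and 3 at E13. Its reads were the most spread of any gene with 50 or more, the main circle (circRNA4984) holding 24.8%. PTPRF, the LAR phosphatase itself, had 3, 17 and 6 reads at E19 and 2, 10 and 10 at E13. PTPRK had 0, 2 and 3 reads at E19, against 18, 1 and 6 at E13, mostly from a circle of exon 2 alone (circRNA4514, 272 bases), which had 15 of its 23 reads in 1 E13 library.

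Of the non-receptor tyrosine phosphatases PTPN14, which restrains the growth regulator YAP, was the most abundant, with 35, 61 and 38 reads at E19 and 61, 43 and 33 at E13 (log2 change -0.05, SE 0.43). Its circle of exons 1 and 2 (circRNA1681) made up 83.6% of its reads at E19 and 98.5% at E13. Its other circles had 6, 12 and 4 reads at E19, against 0, 0 and 2 at E13. Of the 9 PTPN14 circles 8 were seen in 1 library only. PTPN4, with FERM and PDZ domains, had 19, 18 and 33 reads at E19, against 7, 11 and 4 at E13, with every E19 library higher (log2 change 1.60, SE 0.71, unadjusted p = 0.025, edgeR adjusted p = 0.31). Its circle of exons 2 to 14 (circRNA903) had 12, 4 and 9 reads at E19 and 1, 2 and 0 at E13, and the circle of exons 2 to 12 (circRNA13986) had all of its 13 reads in the last E19 library. PTPN3, of the same type, had 9, 7 and 5 reads at E19 and 8, 6 and 7 at E13.

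Among the remaining genes, EEPD1, which has an endonuclease, exonuclease and phosphatase family domain, had 7, 10 and 22 reads at E19, against 2, 3 and 4 at E13, with no overlap (log2 change 2.02, SE 1.11, edgeR adjusted p = 0.46). PXYLP1, which takes phosphate off xylose in proteoglycan synthesis, had 11, 18 and 15 reads at E19 and 7, 16 and 5 at E13. PFKFB4, which makes and breaks down fructose 2,6-bisphosphate, had 0, 6 and 8 reads at E19 and 4, 0 and 0 at E13.

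**Figure D5:**
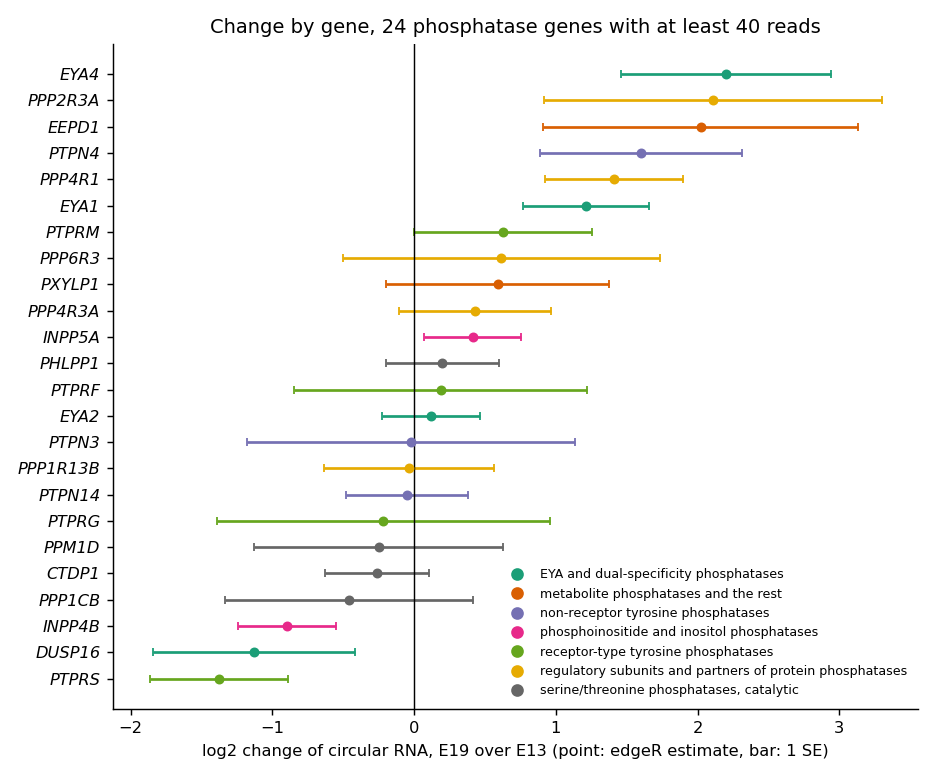
log2 change of summed circular RNA, E19 over E13, for 24 of the 25 tested phosphatase genes with at least 40 reads, coloured by class. The remaining gene is among those left unnamed and is not shown. Points are edgeR estimates and bars 1 SE. The estimates run from -1.38 (PTPRS) to 2.20 (EYA4), genes of most classes lie on both sides of 0, and none passed an adjusted p of 0.05.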

How the data were processed

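Breast muscle RNA of 3 embryos at E19 and 3 at E13 was depleted of ribosomal RNA, digested with RNase R, which degrades linear RNA, and sequenced. Per the labels and methods, the authors used Cutadapt for trimming, Bowtie 2 and TopHat 2 for mapping to the Ensembl duck genome, and TopHat-Fusion with CIRCexplorer2 and CIRI to find back-splices. The sources used here name neither tool versions nor a genome build. The deposited counts give, for every listed circle, the raw back-splice reads of each library. The deposited SRPBM signal is that count divided by a constant of each library, the authors' total of mapped bases (in units of 1000000000), recovered as count over SRPBM (4.11, 4.05 and 4.24 at E19, and 4.31, 3.77 and 4.07 at E13). The other column used, circle length in bases, is as deposited. Sheets with the authors' own fold changes and p-values were not used.

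Of 16631 listings, 1714 pairs with one chromosome, strand and end and starts 1 base apart were joined by the larger count in each library, 55 of them in phosphatase genes. Rows of one description were summed as a gene. Junctions or genes with at least 10 reads over the 6 libraries were tested with edgeR 4.0.16 (quasi-likelihood, R 4.3.3), with the SRPBM constant as library size and Benjamini-Hochberg adjustment over everything tested, at a threshold of 0.05. The SE is the absolute log2 change over the square root of F. A fold against 0 reads takes 3 reads over the stage. Single values were compared by two-sided exact permutation tests (scipy 1.17.1). Of these tests, the edgeR junction test was checked on simulated counts. DESeq2 1.42.0 and limma voom (limma 3.58.1) were alternatives, with other library sizes, filters, rules for pairs, a second table of counts and libraries left out.

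Genes named are those with the smallest p (6 in each direction), the most reads (10 in all and 3 of each class), or among the parental genes in the study's enrichment tables, and circles likewise. The genes PPP2R3A, PPP2R5A, PPM1D and PPP6R3 were added after their values were seen. Genes were classed by description and symbol. CTDP1 and other CTD phosphatases, PPTC7 and UBLCP1 were put with the serine/threonine enzymes, and MPRIP and CIP2A with the regulators, after the files were seen. No gene fell in a class of lipid phosphate phosphatases. The members and all lists were chosen with earlier results of these data known. A few genes within these rules and lists are counted but left unnamed and not reported. No sequences are printed, because no genome of the files' build was used here.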

Additional observations from a re-analysis of the deposited data

How the results depend on the processing

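The counts of called phosphatase circles and genes depended on the scaling and the tool, and the share of all circles or genes called in the same fit is given in parentheses. Circles passing an adjusted p of 0.05 were 0 as reported (1.3%) and 1, circRNA1554 of INPP4B, when scaled by total back-splice reads (0.887%), with DESeq2 (1.69%) and with limma voom (1.27%). Genes were 0 as reported (2.72%), 2 with total back-splice reads (2.45%), 2 with TMM factors (2.72%), 1 with DESeq2 (1.8%) and 1 with limma voom (1.8%), and from 0 to 1 over the fits that leave out a library (0.867% to 2.59%), the 1 being EYA4 without E19 replicate 3 (2.59%). At the thresholds of the study, circles were 5 as reported (9.09%). They were 6 with total back-splice reads (8.68%), with TMM factors (8.4%) and with the listing of the larger total (8.53%). They were 3 with the edgeR exact test (5.71%), 3 with at least 20 reads (9.42%) and from 2 to 4 with a library left out (6.44% to 8.0%). Genes were 7 as reported (11.5%), 4 with DESeq2 (7.52%) and from 3 to 6 with a library left out (8.35% to 11.2%). Without E13 replicate 1 they were 2 circles (7.66%) and 3 genes (10.2%), without E13 replicate 2 they were 3 circles (7.5%), without E13 replicate 3 they were 4 genes (10.4%), without E19 replicate 2 they were 4 genes (8.35%), and without E19 replicate 3 they were 3 circles (7.68%). The lower share at E19 kept its direction in all 10 alternatives (difference from -0.70 to -0.35 percentage points), and so did the number of junctions seen in its 9 (4 to 16 more junctions at E19). That number is not scaled to all junctions seen, of which phosphatase junctions made up 2.22% at E19 and 2.26% at E13. All of these shares include INPP4B, and a share without that gene, in which the stages overlapped, was not among the alternatives.

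Same-numbered libraries of the stages did not deviate together (correlations of -0.06, 0.03 and -0.06 over 1042 junctions). This gives no sign of a pairing by number, and with 3 libraries per stage it cannot exclude one. With the replicate block 0 circles (0.97% of all) and 0 genes (1.58%) passed, and 4 circles (4.96%) and 5 genes (6.59%) met the thresholds of the study.

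Of 1037 values for the 59 named circles and genes under the alternatives, 983 kept direction and side of the threshold, 10 passed it anew and 44, of 18 circles and genes, turned sign. No value that turned was past the threshold, and the cause was not tested. With total back-splice reads the log2 change turned to -0.15 for circRNA3501, -0.062 for circRNA3523, -0.099 for circRNA4438, -0.15 for circRNA760, -0.13 for EYA2, -0.090 for PHLPP1 and -0.27 for PTPRF. With TMM factors it turned to -0.016 for circRNA3501, -0.0084 for circRNA760, -0.019 for EYA2 and -0.098 for PTPRF. With DESeq2 it turned to -0.068 for circRNA3501, -0.057 for circRNA760, -0.062 for EYA2, -0.016 for PHLPP1 and -0.17 for PTPRF. With limma voom it was 0.057 for circRNA2623 and 0.10 for FIG4, with the replicate block 0.030 for FIG4, and with the listing of the larger total 0.034 for PPP1R13B.

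Leaving out each library in turn moved the log2 change across 0 for circRNA2171 (-0.42 to 0.077), circRNA2623 (-1.43 to 0.055), circRNA3501 (-0.21 to 0.32), circRNA4438 (-0.29 to 0.52), circRNA4616 (-0.72 to 1.27), circRNA4765 (-0.34 to 0.21), circRNA5024 (-1.13 to 0.23), circRNA760 (-0.12 to 0.44), CTDP1 (-0.42 to 0.062), EYA2 (-0.12 to 0.30), FIG4 (-1.08 to 0.46), PPP1CB (-0.85 to 0.24), PPP1R13B (-0.24 to 0.29), PTPN14 (-0.36 to 0.15), PTPN3 (-0.24 to 0.18) and PTPRF (-0.77 to 0.59).

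At this depth 250 of the 321 phosphatase junctions and 31 of the 77 genes had fewer than 10 reads over the 6 libraries and were not tested.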

Other observations

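Circles of phosphatase genes labelled as intronic were rare and mostly private to a library. The label does not always fit the positions: ciRNA695 of EYA2 covers the whole span of the exonic circle circRNA3501. Of the 28 molecules with this label, 2 had more than 20 reads. The one of PHLPP1 (ciRNA179, 9908 bases as listed) had 0, 5 and 6 reads at E19, against 10, 11 and 0 at E13. The one of PTPRM (ciRNA579, 3126 bases) had 0, 8 and 5 reads at E19, against 0, 7 and 2 at E13. The only circle of the phosphoethanolamine/phosphocholine phosphatase gene (ciRNA1509, 176 bases) had 8 reads, all in the last E19 library.

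Some circles with 10 or more reads came from 1 library alone: circRNA13986 of PTPN4 had 13 reads in E19 replicate 3, and circRNA10172 of PPP2R5A (exons 3 to 8) had 12 reads in E19 replicate 1. EYA1 had a pair of circles whose first exons start 3 bases apart, with 203 and 6 reads.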
